A study of Mus musculus with 12 samples.

Results

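A set of 9 genes that hold back the cell cycle was followed in mouse embryonic fibroblasts under DNA damage: CDKN1A, CDKN1B, CDKN2A, CDKN2B, CDKN2C, CDKN2D, BTG2, GADD45A and PLK2, as the deposited table spells them. They were chosen by symbol, and all 9 were found among the 16425 gene entries of the table. The fibroblasts were wild type and carried, after infection, either a guide that targets the p53 response element within Pvt1 (sg10 in the labels, here the p53RE guide) or a non-targeting control guide (sgtom). The cells of both groups had then received 0.5 µM doxorubicin, a topoisomerase poison that breaks DNA, for 24 hours, and each group had 3 libraries, described as biological replicates. The untreated cells of the study were not analysed here, so no value below is a response to doxorubicin. The labels do not say whether the replicates were separate embryo preparations, infections or cultures, so p-values measure the spread between these libraries only.

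Progression from G1 into S phase is driven by cyclin-dependent kinases (CDKs), which phosphorylate the retinoblastoma protein and release E2F factors. The Cip/Kip inhibitors p21 (Cdkn1a) and p27 (Cdkn1b) bind CDK2 complexes, and the Ink4 inhibitors p16 (Cdkn2a), p15 (Cdkn2b), p18 (Cdkn2c) and p19 (Cdkn2d) bind CDK4 and CDK6. Cdkn2a also encodes Arf, which restrains Mdm2 and so stabilises p53, and this locus is known for its activation in cultured mouse fibroblasts. Cdkn1a, Btg2, Gadd45a and Plk2 are textbook p53 target genes of the DNA damage response. Myc, the gene next to Pvt1, encodes a factor known to repress Cdkn1a and Cdkn2b through Miz1.

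No member passed the test for a difference between the guides, beside 0.0% of all genes tested (0.0346% with replicate number as a block). All 9 had overlapping guide groups, and 3.61% of all genes had groups without overlap. Between replicate numbers 7 of the 9 passed, beside 48.6% of all genes, and Gadd45a had the widest spread, with values from 19.3 to 45.1 CPM (read counts scaled to library size). Values come from 50091418 to 66132317 reads in genes per library, and each member value rests on 247 to 103473 reads. Libraries of the 2 guides with the same replicate number deviated together, so each p53RE library is also compared with the control library of its number. The cell type label fitted the markers: all 15 fibroblast markers were listed, with a summed level of 40063 to 41975 CPM. Endothelial, epithelial, neural and muscle markers summed to between 38.6 and 100.5 CPM in every library. Most of each of these sums came from Kdr, Krt19, Tubb3 or Des, and several of these markers were not listed. Fn1 weighed most in the fibroblast sum. With the control guide the fibroblast markers Dcn (mean 21.1 CPM) and Lum (10.9) lay below Kdr (62.1) and Krt19 (81.8). The 14 macrophage markers that were listed summed to 237, 115 and 136 CPM in control libraries 1, 2 and 3, and to 373, 109 and 137 CPM in p53RE libraries 1, 2 and 3, so they were high in replicate 1 of both guides. Of these 14, 13 were higher with the p53RE guide on average over the pairs, with a median of 0.15 in log2. The sums lay far apart in pair 1 only, and limma called none of the 14 in either fit.

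The targeted gene was lower with the p53RE guide in every pair. Pvt1, a long noncoding RNA, was at 13.4 ± 2.61 CPM with the control guide and 6.46 ± 1.40 CPM with the p53RE guide (SD, n = 3 each), with ratios of 0.491, 0.507 and 0.448 in pairs 1, 2 and 3. Myc was at 30.4 ± 4.55 and 48.6 ± 5.16 CPM (SD, n = 3 each), with ratios of 1.52, 1.80 and 1.51. On the log2(CPM + 0.5) scale used for all fold changes below, Pvt1 differed by -0.999 (95% interval -1.16 to -0.84) and Myc by 0.67 (0.56 to 0.79) in limma fits with the replicate number as a block. Their adjusted p in those fits was 0.00014 for Pvt1 and 0.000549 for Myc, but 1.0 for each in limma fits without the block. In the block fit without limma's trend the calls ended, with adjusted p of 0.249 for Pvt1 and 0.835 for Myc. DESeq2 without a block gave an adjusted p of 0.0276 for Pvt1 and 0.0551 for Myc. They serve as a scale for the members. Since limma without the block called neither Pvt1 nor Myc, its adjusted p for a member does not show that the guides were alike.

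Levels per kilobase of exon differed widely between members. Cdkn1a was highest, at 384 ± 39.0 CPM per kb (SD over the 6 libraries, both guides together), and no other member's range reached it. Cdkn2a (162 ± 30.7) and Cdkn2b (125 ± 11.5), the neighbouring Ink4 genes, followed with overlapping ranges. Btg2 (73.7 ± 9.57) and Plk2 (56.0 ± 3.91) overlapped each other as well, and Gadd45a stood alone below them at 17 ± 5.91 CPM per kb. Lowest were the remaining inhibitors, Cdkn2c at 3.15 ± 0.365, Cdkn2d at 2.91 ± 0.392 and Cdkn1b at 1.99 ± 0.125 CPM per kb. Cdkn2c and Cdkn2d overlapped, and Cdkn1b lay below both in all 6 libraries. With the longest transcript as length instead of all exons together, Plk2 (89.9) moved above Btg2 (73.7), their ranges still overlapping, Cdkn1a rose to 656, and Cdkn2a (212) no longer overlapped Cdkn2b.

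**Figure D1:**
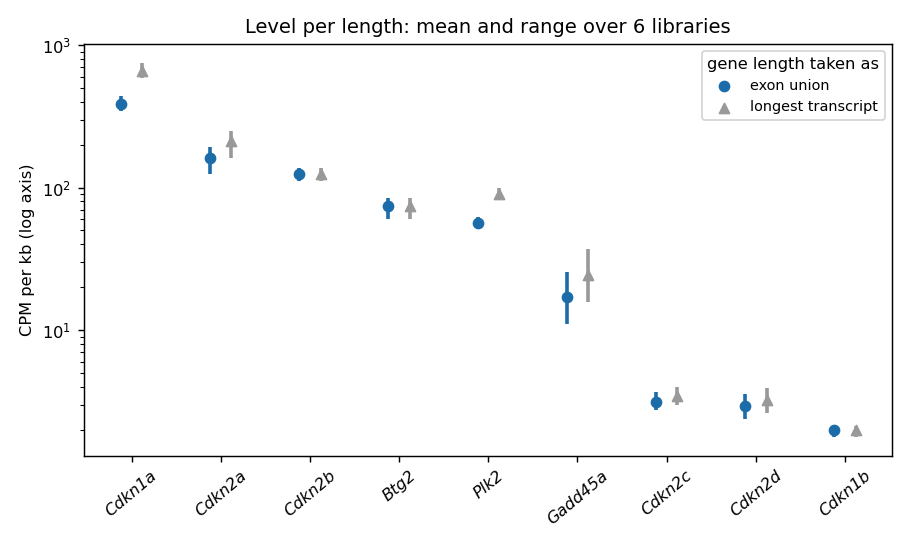
Mean level of each member in CPM per kb of gene length on a log axis, with vertical lines from the lowest to the highest of the 6 libraries; circles use all exons together and triangles the longest transcript. Cdkn1a lies above all other members and Cdkn2c, Cdkn2d and Cdkn1b lie below 4 CPM per kb with either length.

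Cdkn1a (ENSMUSG00000023067.14, mm10 chr17:29090976-29100727, plus strand) encodes p21, the main CDK inhibitor that p53 induces. Its annotated transcripts start at several sites, of which an upstream one lies 2.8 kb before the start of Cdkn1a-201. The 240 bases from 250 to 11 before the upstream start are shown because they hold the only match, among 12 member windows, to the paired cores of a p53 response element, CATGNNNNNNCATG, which is in capitals. The sequence is the RefSeq promoter window of GRCm38.p6, plus strand, 5′ to 3′.
Cdkn1a chr17:29090729-29090968: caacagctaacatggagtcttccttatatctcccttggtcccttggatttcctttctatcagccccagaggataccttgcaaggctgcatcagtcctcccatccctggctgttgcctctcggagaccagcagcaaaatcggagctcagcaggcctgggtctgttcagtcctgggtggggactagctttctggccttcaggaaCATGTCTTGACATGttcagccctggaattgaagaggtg
The match runs from 48 to 35 bases before the start. The same letters, searched on both strands, were in 0.712% of all 32851 RefSeq promoter windows of 300 bases. The full p53 consensus of 2 half-sites, with no spacer and no mismatch allowed, was in 0.00913% of them and in none of the 12 member windows. Half-sites with a spacer between them were not searched. A match is a description of the letters and not of binding.

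Cdkn1a was at 1483, 1292 and 1226 CPM in control libraries 1, 2 and 3, and at 1564, 1389 and 1234 CPM in p53RE libraries 1, 2 and 3. It was slightly higher with the p53RE guide in each pair, by ratios of 1.05, 1.07 and 1.01, yet the guide groups overlapped because replicate 1 was high and replicate 3 low under both guides. The difference between guides was 0.06 in log2 (SE 0.12, n = 3 each), with a limma adjusted p of 1.0. With the block the 95% interval was -0.01 to 0.14, that is a fold between 0.992 and 1.10, with an adjusted p of 0.756. An opposite-strand gene model, AC167363.2, shares 273 bases of exon with Cdkn1a and is not an entry of the table. The setting for strand in counting is not given in the sources used here.

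Cdkn1b (ENSMUSG00000003031.14, chr6:134920401-134925513, plus strand) encodes p27, which accumulates in quiescent cells and is mostly controlled through degradation. It was at 8.85, 9.50 and 9.33 CPM in control libraries 1 to 3 and at 8.11, 9.69 and 8.94 CPM in p53RE libraries 1 to 3. The values lay within a factor of 1.19 of each other, with the p53RE library lower in 2 pairs and higher in 1. Its log2 difference between guides was -0.05 (SE 0.09, n = 3 each; limma adjusted p = 1.0).

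The Ink4 genes Cdkn2a and Cdkn2b lie on chromosome 4, minus strand, 11.6 kb apart. Cdkn2a (ENSMUSG00000044303.6, chr4:89274471-89294653) has 2 annotated transcripts whose RefSeq starts are 12.4 kb apart, 1 for Arf and 1 for p16, and the gene-level values do not separate them. Cdkn2a was at 223, 201 and 145 CPM in control libraries 1 to 3 and at 201, 224 and 145 CPM in p53RE libraries 1 to 3. Both guides were thus lowest in replicate 3 and at equal levels there, while pairs 1 and 2 went in opposite directions (ratios 0.901 and 1.11). The mean levels of the guides were 189.9 ± 40.2 and 190.1 ± 40.3 CPM (SD, n = 3 each). The log2 difference of 0.00 had a 95% interval of -0.52 to 0.52 without the block and of -0.12 to 0.13 with it.

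Cdkn2b (ENSMUSG00000073802.5, chr4:89306299-89311039) encodes p15, an inhibitor known for its induction by TGF-beta. It was at 192, 177 and 156 CPM in control libraries 1 to 3 and at 179, 187 and 153 CPM in p53RE libraries 1 to 3. The pairs went the same ways as for Cdkn2a in numbers 1 and 2 (ratios 0.936 and 1.06), and pair 3 had a ratio of 0.980. Again both guides were lowest in replicate 3. The log2 difference between guides was -0.01 (SE 0.11, n = 3 each; limma adjusted p = 1.0).

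Cdkn2c (ENSMUSG00000028551.14, chr4:109660876-109667189, minus strand) encodes p18. It was at 9.12, 7.4 and 8.71 CPM in control libraries 1 to 3 and at 9.84, 7.33 and 8.39 CPM in p53RE libraries 1 to 3, lowest in replicate 2 under both guides. Its log2 difference between guides was 0.01 (SE 0.14, n = 3 each; limma adjusted p = 1.0).

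Cdkn2d (ENSMUSG00000096472.2, chr9:21288410-21291407, minus strand) encodes p19 of the Ink4 family, a protein distinct from Arf. It was at 4.33, 5.60 and 4.70 CPM in control libraries 1 to 3 and at 3.73, 4.78 and 4.39 CPM in p53RE libraries 1 to 3. The p53RE library was lower in every pair, by ratios of 0.862, 0.855 and 0.933, but the groups overlapped. Cdkn2d had the largest difference of the 9 members, -0.16 in log2 (SE 0.14, n = 3 each), with a limma adjusted p of 1.0. With the block the 95% interval was -0.35 to 0.03, a fold between 0.782 and 1.02, with an adjusted p of 0.757. It is also the member with the fewest reads, 247 to 328 per library.

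Btg2 (ENSMUSG00000020423.6, chr1:134075170-134079120, minus strand) encodes an antiproliferative adaptor of the mRNA deadenylation machinery. It was at 207, 217 and 174 CPM in control libraries 1 to 3 and at 215, 233 and 166 CPM in p53RE libraries 1 to 3. Replicate 3 was lowest under both guides, and the pair ratios of 1.04, 1.08 and 0.955 did not share a direction. Its log2 difference between guides was 0.03 (SE 0.15, n = 3 each; limma adjusted p = 1.0).

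Plk2 (ENSMUSG00000021701.8, chr13:110395046-110400844, plus strand) encodes a stress-responsive polo-like kinase. It was at 231, 259 and 277 CPM in control libraries 1 to 3 and at 244, 237 and 262 CPM in p53RE libraries 1 to 3. Control library 1 was its lowest control value, whereas p53RE library 2 was its lowest p53RE value, and the pair ratios were 1.06, 0.914 and 0.944. The log2 difference between guides was -0.04 (SE 0.09, n = 3 each; limma adjusted p = 1.0).

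Gadd45a (ENSMUSG00000036390.8, chr6:67035096-67037457, minus strand) encodes a small stress protein that binds p21 and PCNA and inhibits the CDK1 and cyclin B kinase. It was at 45.1, 28.6 and 19.3 CPM in control libraries 1, 2 and 3, and at 39.2, 28.4 and 19.4 CPM in p53RE libraries 1, 2 and 3. The 2 guides were nearly equal in replicates 2 and 3, with ratios of 0.992 and 1.0, and the p53RE library was lower in replicate 1, with a ratio of 0.870. The highest library was 2.33 times the lowest. The log2 difference between guides was -0.07, with a 95% interval of -0.94 to 0.80 without the block and of -0.18 to 0.05 with it (limma adjusted p = 1.0 and 0.839). An opposite-strand noncoding gene, E230016M11Rik, shares 337 bases of exon with Gadd45a and was at 0.355 to 0.646 CPM.

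The promoter of Gadd45a is shown because it differs from those of the other members in a pair of octamer letters around a CCAAT box, all in capitals; these lie between 97 and 63 bases before the RefSeq start. The 200 bases, from 250 to 51 before that start, are on the minus strand of GRCm38.p6, from RefSeq, 5′ to 3′.
Gadd45a chr6:67037458-67037657: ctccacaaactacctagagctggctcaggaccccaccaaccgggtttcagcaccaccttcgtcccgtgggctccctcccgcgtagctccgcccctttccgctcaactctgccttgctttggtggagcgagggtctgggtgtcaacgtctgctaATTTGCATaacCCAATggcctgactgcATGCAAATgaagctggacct
The octamer ATTTGCAT, searched on both strands, was in 1.74% of all promoter windows and in 1 of the 12 member windows. The CCAAT box was in 37.4% of all windows and in 6 of the 12. No enrichment was tested.

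**Figure D2:**
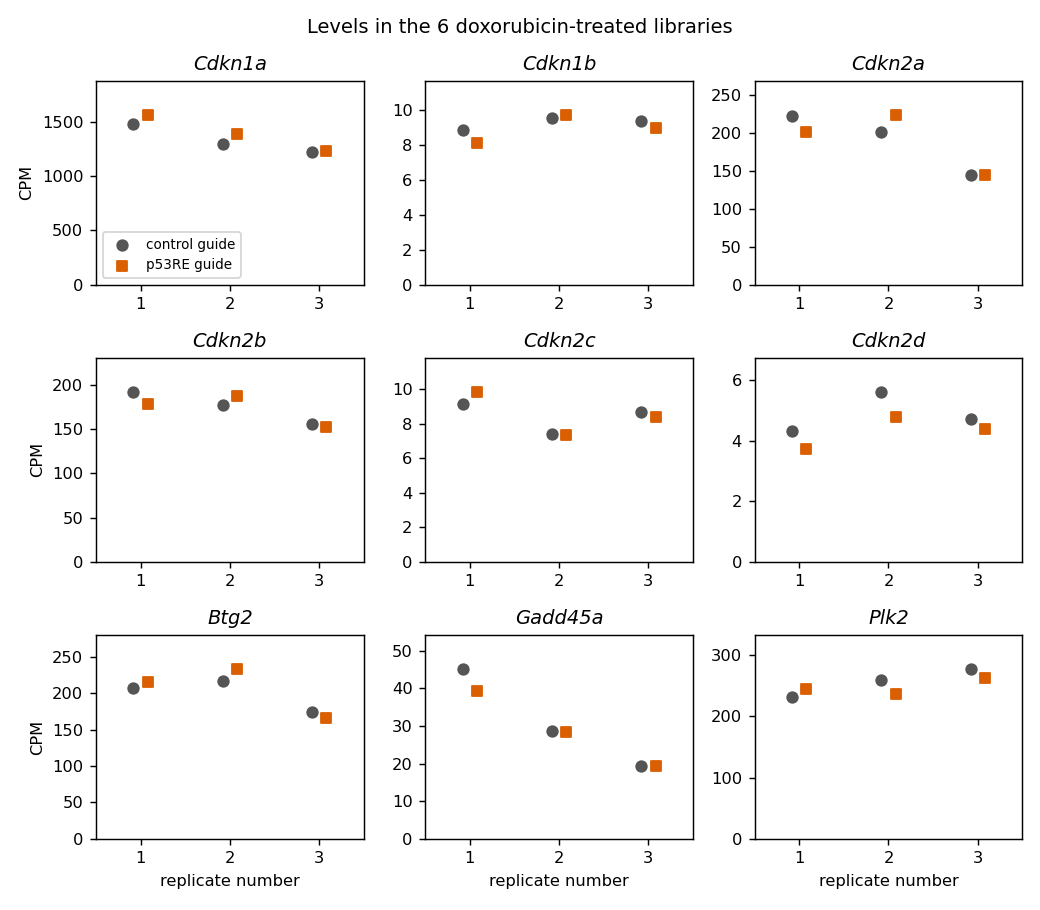
CPM of each member in the 6 doxorubicin-treated libraries, from 0, by replicate number on the horizontal axis; circles are control-guide and squares p53RE-guide libraries. Squares over circles of the same number have ratios from 0.855 (Cdkn2d) to 1.11 (Cdkn2a), and for Cdkn2a the guides cross between replicates 1 and 2. For Gadd45a circles and squares lie near 42.2, 28.5 and 19.4 CPM on average in replicates 1, 2 and 3.

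Over the 9 members, 4 were higher and 5 lower with the p53RE guide, with a median log2 difference of -0.01. The median size of the difference was 0.045 for the members and 0.047 for all 14440 genes tested, so the members' differences were of the size of those of other genes. The limma fit without the block called 0 of 9 members, beside 0.0% of all genes, and the fit with the block called 0 of 9, beside 0.0346%, which are 5 genes. None of the 9 had an unadjusted p under 0.05 in either limma fit. Of all 14440 genes tested, 50 had one without the block and 965 with it. So few genes had one that its absence in 9 members does not set them apart. edgeR on recovered reads and DESeq2 called 0 of the 9 as well, with none at an unadjusted p under 0.05. In the authors' deposited table the false discovery rate was 1.0 for each of the 9, with p-values from 0.489 for Cdkn2d to 0.994 for Cdkn2a.

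The direction was shared by the 3 pairs in 2 of the 9 members, higher for Cdkn1a and lower for Cdkn2d, beside 28.8% of all genes tested. None of the 9 had guide groups without overlap, beside 3.61% of all genes. In the block fits the 95% intervals of Cdkn1a, Cdkn2a, Cdkn2b, Btg2, Gadd45a and Plk2 lay between folds of 0.882 and 1.10. Those of the 3 members with the fewest reads were wider, reaching 0.867 for Cdkn1b, 1.13 for Cdkn2c and 0.782 for Cdkn2d. The Myc difference in the same fit, 0.67 in log2, lay outside the interval of every member. Without the block the intervals were wider, reaching folds of 0.522 to 1.75 for Gadd45a, which include a difference of the size of that of Myc, and of 0.699 to 1.43 for Cdkn2a.

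**Figure D3:**
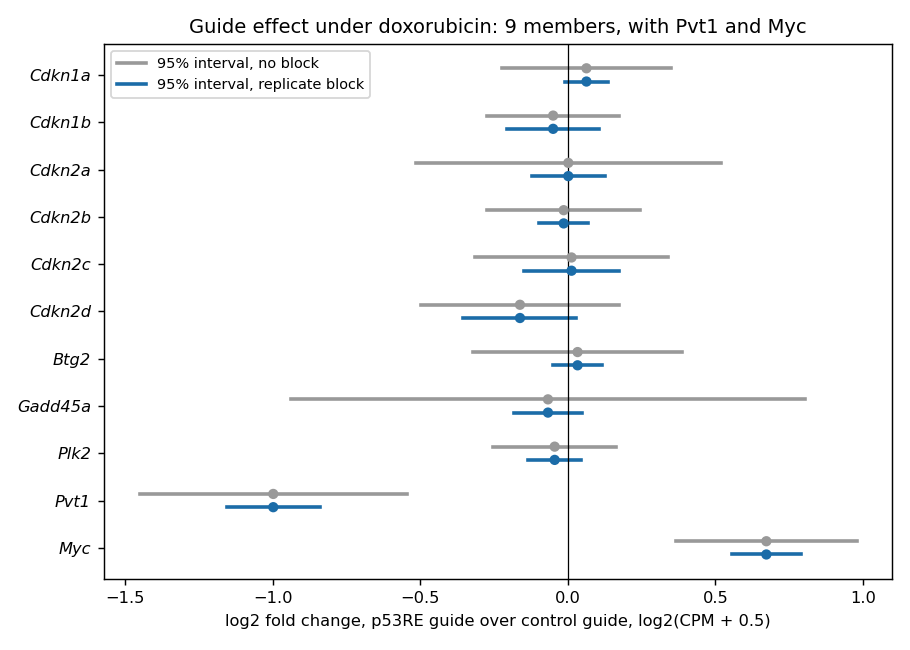
Log2 fold change of the p53RE guide over the control guide on the log2(CPM + 0.5) scale for the 9 members, Pvt1 and Myc, with 95% intervals without (grey) and with (blue) the replicate block. All 9 members' intervals include 0 in both fits, whereas those of Pvt1 (-1.16 to -0.84 with the block) and Myc (0.56 to 0.79) do not.

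The members differed between replicate numbers. A limma F test of replicate number, with the 2 guides as repeats, called 7 of the 9, beside 48.6% of all genes tested. Adjusted p-values given below beside a difference between 2 replicate numbers are of this F test over all numbers, not of that difference. The median range between replicates was 0.33 in log2 for the members and 0.23 for all genes. For Gadd45a, replicate 3 was 1.10 in log2 below replicate 1 (adjusted p 3.6e-07 in limma), and only 3.21% of all genes had a range as wide. For Cdkn1a, replicate 3 was 0.31 in log2 below replicate 1 (limma adjusted p = 0.000272), with replicate 2 in between.

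A further 3 members shared another pattern, in which replicates 1 and 2 were alike and replicate 3 was low. From replicate 2 to replicate 3, Cdkn2a dropped by 0.54 in log2, Btg2 by 0.40 and Cdkn2b by 0.23. The limma F test over all replicate numbers gave adjusted p of 0.000357 for Cdkn2a, 6.79e-05 for Btg2 and 0.00125 for Cdkn2b. Without replicate 3 these calls ended, with adjusted p of 0.996 for Cdkn2a, 0.175 for Btg2 and 0.757 for Cdkn2b. Plk2 went the other way, with replicate 3 above replicate 1 by 0.19 (limma F test adjusted p = 0.0272, and 0.403 without replicate 3). Cdkn2c was lowest in replicate 2, by 0.34 below replicate 1 (F test adjusted p = 0.0213). The differences of Cdkn2d (0.0635) and Cdkn1b (0.261) did not pass. The macrophage markers, 11 of 14 of which also differed between replicates, were high in replicate 1, where Gadd45a and Cdkn1a were high; their part in these differences was not tested.

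Replicate number accounted for a median of 92.0% of the sum of squares of the members and 80.5% of that of all genes. The guide accounted for a median of 0.875% in the members and 3.94% in all genes. Replicate number has more degrees of freedom than the guide, so each share is to be set beside that of all genes, not beside the other share. Gadd45a was at one end, with 98.4% for replicate number. Cdkn2d had the largest guide share of the 9, 26.2%, and Plk2 the largest share left to neither, 23.7%.

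**Figure D4:**
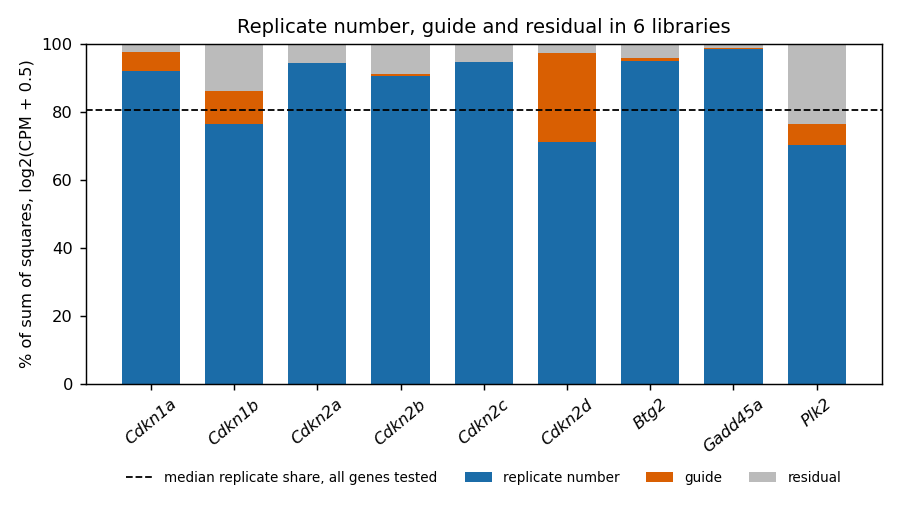
Share of the sum of squares of log2(CPM + 0.5) over the 6 libraries that goes with replicate number (blue), guide (orange) and neither (grey), in percent, for each member; the dashed line is the median replicate share of all genes tested, 80.5%. Replicate number is the largest share in all 9 members, and the guide share exceeds 10% in Cdkn2d only.

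Btg2, Cdkn2b and Plk2 each hold the palindromic cAMP response element letters TGACGTCA within 166 bases before their start, which is the binding sequence of CREB and ATF factors. Stretches of 48 bases are shown, with these letters in capitals, because 3 of 12 member windows held them beside 1.79% of all windows. These letters were picked from several motifs after the search, and no enrichment was tested. The windows were not matched for GC content. The stretches are from RefSeq, GRCm38.p6, in the direction of each gene, minus strand for Btg2 and Cdkn2b and plus strand for Plk2.
Btg2 chr1:134079294-134079341: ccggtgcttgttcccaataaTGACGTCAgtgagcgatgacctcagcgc
Cdkn2b chr4:89311051-89311098: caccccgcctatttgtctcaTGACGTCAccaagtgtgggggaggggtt
Plk2 chr13:110394962-110395009: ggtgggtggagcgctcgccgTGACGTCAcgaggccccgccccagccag
The 3 genes did not share a replicate pattern: Btg2 and Cdkn2b were lowest in replicate 3, where Plk2 was highest. The GC box GGGCGG was in 10 of the 12 member windows and in 35.7% of all windows, and the E-box CACGTG, a Myc and Max binding sequence, was in 1 member window, of Cdkn2c, and in 7.15% of all windows. The TATA box TATAAA was in none of the member windows and in 13.6% of all windows. All motifs were searched on both strands.

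The partners and targets of the inhibitors were described from lists. Of 12 CDKs and cyclins that the inhibitors bind, 6 were higher and 6 lower with the p53RE guide, and 0 passed in either limma fit. Cdk4, the kinase that the Ink4 proteins bind, was at 173 ± 9.92 CPM with the control guide and 184 ± 21.5 CPM with the p53RE guide (SD, n = 3 each), and Cdk1, the mitotic kinase, at 7.84 ± 0.42 and 7.56 ± 0.153 CPM. Of 18 Rb and E2F genes, 7 were higher and 11 lower and 0 passed in either fit. In this list E2f4, a repressive E2F, was at 43.2 ± 0.291 and 46.1 ± 1.07 CPM. Mybl2, an E2F target, was at 1.15 ± 0.0689 and 1.54 ± 0.0704 CPM. Each was higher in 3 of 3 pairs but had an adjusted p of 1.0 in limma without the block. In the limma block fit the adjusted p was 0.726 for E2f4 and 0.684 for Mybl2.

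Of 14 genes of the ubiquitin ligases that degrade the inhibitors, 7 were higher and 7 lower, and 0 passed. Skp2, which targets p27, was at 4.87 ± 0.417 CPM with the control guide and 5.68 ± 0.377 CPM with the p53RE guide (SD, n = 3 each), higher in 3 of 3 pairs (limma adjusted p = 1.0). Dtl, which targets p21, was at 1.30 ± 0.678 and 1.64 ± 0.488 CPM, also higher in 3 of 3 pairs (limma adjusted p = 1.0). In limma with the block, Skp2 had an adjusted p of 0.725 and Dtl of 0.738. Of 25 regulators of the Ink4 and Arf locus, 11 were higher and 14 lower, and 0 passed. Kdm6b, a demethylase that removes the Polycomb mark, was at 81.0 ± 8.14 and 90.5 ± 6.08 CPM, and Rnf2, a Polycomb ubiquitin ligase, at 54.0 ± 1.42 and 50.1 ± 1.40 CPM. With the block in limma, Kdm6b had an adjusted p of 0.508 and Rnf2 of 0.678.

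Of 9 genes for Myc and its partners in repression, 7 were higher and 2 lower, and Myc itself was the only one to pass, in the block fit. Of 11 relatives of the members, 7 were higher and 4 lower and 0 passed. Tob1, of the Btg family, was at 50.9 ± 8.11 and 53.3 ± 5.67 CPM, and Gadd45g at 87.5 ± 1.76 and 90.3 ± 4.90 CPM with the control and p53RE guide (SD, n = 3 each). Of 20 other p53 genes of arrest and p53 control, 11 were higher and 9 lower, and 0 passed. Trp53 was at 160.3 ± 16.6 and 171 ± 4.37 CPM, Mdm2, its inhibitor, at 584 ± 54.2 and 607 ± 77.8 CPM, and Rrm2b, a ribonucleotide reductase subunit, at 27.6 ± 1.23 and 25.6 ± 1.28 CPM. The median log2 difference of these 7 lists lay between -0.01 and 0.03, beside 0.00 for all genes.

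Between replicates, 16 of these 20 p53 genes differed by the limma F test (80.0%, beside 48.6% of all genes). So did 16 of 25 regulators of the Ink4 and Arf locus (64.0%), 8 of 12 CDKs and cyclins (66.7%) and 6 of 18 Rb and E2F genes (33.3%). The share was 57.1% in the ubiquitin ligase list and 45.5% in the relatives. It was 77.8% in the Myc list and 78.6% in the macrophage markers, so a high share was not particular to the p53 list. The summed level of the 20 p53 genes was 4902, 4242 and 3943 CPM in control libraries 1, 2 and 3 and 4827, 4273 and 3884 CPM in p53RE libraries 1, 2 and 3. That order of the sum was also the order of Cdkn1a and Gadd45a. The sum weighs abundant genes most, such as Ccng1, at 1757, 1454 and 1442 CPM in control libraries 1, 2 and 3. Not every gene of the list had that order: Sfn was at 46.1, 83.9 and 101 CPM in the same libraries. Mdm2 had the pattern of Cdkn2a and Btg2 instead, at 612, 619 and 522 CPM in control libraries 1 to 3 and 657, 646 and 517 CPM in p53RE libraries 1 to 3.

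Genes with the most similar pattern were sought among 10398 genes with a mean of at least 5 CPM, by the root mean square difference of centred log2 values over the 6 libraries. For Cdkn1a the closest were Sfpq (0.0187), Safb (0.0219) and Fam214a (0.0223), of which Sfpq was at 128, 109 and 106 CPM in control libraries 1 to 3 and at 133, 117 and 107 CPM in p53RE libraries 1 to 3. For Gadd45a, the member with the widest range, the closest were Ano5 (0.0407), 3632451O06Rik (0.0625) and Smim1 (0.0728). Ano5 was at 13.1, 8.56 and 5.49 CPM in control libraries 1 to 3 and at 12, 8.54 and 5.99 CPM in p53RE libraries 1 to 3. That it has the order of replicates of Gadd45a follows from how it was chosen.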

How the data were processed

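The 6 doxorubicin-treated libraries (stranded polyA RNA) were read from the deposited table of the doxorubicin comparison, which holds no values of the untreated samples. Per the submitters' processing notes, the tools were TopHat2 2.0.14, StringTie 1.2.4, HTSeq 0.6.1 and edgeR 3.22.3 on mm10; their settings are not given in the sources used here. The deposited CPM values gave whole reads (within 0.01) for 100% of gene values. The authors' table also holds log2 fold changes, a log2 mean level, p-values and false discovery rates. The 2 entries for reads of no gene held 8.06 to 8.94% (no feature) and 0.543 to 1.58% (ambiguous) of all counted reads, these entries included. They and 6 per-sample columns of pseudo-counts were not used.

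The main test was limma 3.58.1 (R 4.3.3, trend and robust) on log2(CPM + 0.5), with no replicate block, for the 14440 genes that reached 0.5 CPM in 3 or more libraries. Benjamini-Hochberg adjusted p under 0.05 counted as called. Replicate numbers come from the column names; over all genes, departures from the guide's mean had correlations of 0.869, 0.739 and 0.817 between libraries of the same number and of at most 0.203 between others, so the numbers were taken to pair the libraries. This check used the data, not the labels. The block fit has 2 residual degrees of freedom and the other fit 4. The F test of replicate number came from the model of guide plus replicate. edgeR 4.0.16 (quasi-likelihood) and DESeq2 1.42.0 on recovered reads were alternatives, with other filters, pseudocounts, scalings and left-out libraries. The fits were tested on simulated data. Positions are GENCODE M21 (mm10, 15867 symbols matched); promoter windows are RefSeq, GRCm38.p6 (9 of 9 members matched, 12 windows).

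The members and lists were chosen with earlier results of these data known. Named from each pathway list (not the cell type markers) were genes called in either fit, otherwise the 2 of smallest p without the block, plus Pvt1, Myc, Trp53 and Mdm2. Ccng1 and Sfn fall outside this rule and were picked as examples for the replicate order of the p53 list. Similar genes are named for Cdkn1a and the member of widest range.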

Additional observations from a re-analysis of the deposited data

How the results depend on the processing

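No member was called in any of 27 alternative fits of the guide effect. In 3 of them a member had an unadjusted p under 0.05, a different one each time: Cdkn1a with quantile normalization and the block (limma adjusted p = 0.667), Cdkn2d with the block without trend (0.835), and Plk2 with the block without replicate 1 (0.621). Differences of Cdkn2a near 0 changed sign with median centring (-8.26e-05, with and without the block), edgeR (-0.00176, or -0.00159 with the replicate block) and DESeq2 (-0.00142). With 1 library left out, the log2 difference ranged from -0.0224 to 0.148 for Cdkn1a, -0.109 to 0.0123 for Cdkn1b, -0.18 to 0.183 for Cdkn2a, -0.0925 to 0.0717 for Cdkn2b, -0.0909 to 0.11 for Cdkn2c, -0.0675 to 0.176 for Btg2, -0.36 to 0.24 for Gadd45a and -0.117 to 0.0156 for Plk2; that of Mdm2 ranged from -0.0289 to 0.161. Cdkn2d stayed negative, from -0.236 to -0.0683. With the replicate block and 1 number left out, the range was -0.0746 to 0.0772 for Cdkn2a, -0.0624 to 0.0265 for Cdkn2b, -0.0329 to 0.0444 for Cdkn2c and -0.00326 to 0.0825 for Btg2. The filter of a mean of at least 5 CPM left out Cdkn2d, which has no value there.

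Of the pathway lists, the count called was 0 without the block and 1 (Myc) with the replicate block, as it was in block fits with quantile normalization, median centring, no filter, the filter at 5 CPM, pseudocounts of 1 and 0.1, and edgeR; with 1 replicate number left out of the block fit it was 1 to 2, the second being Trp53 without replicate 2 (limma adjusted p = 0.0251, in a fit that called 160 genes), and with the block but without trend 0. The replicate block changed no call of a member. The 7 members that differed between replicates became 3 to 6 when 1 number was left out, with 3 without replicate 3. Calls of Plk2 ended with quantile normalization (adjusted p = 0.0776) and without trend (0.196), and that of Cdkn2b without trend (0.0653), in limma; Cdkn2d passed in both settings (0.0422 and 0.0365). The call of Cdkn2c ended without replicate 1 (0.141) or 2 (0.18). The cause of these changes was not tested. The fits have 4 or, with the block, 2 residual degrees of freedom.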
